A study of Mus musculus with 6 samples.

Results

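Pericytes and vascular smooth muscle cells are the mural cells that wrap the endothelial tube of blood vessels, and 10 genes that mark them were followed in subcutaneous CT26.WT tumors of control mice and of mice that received IFN-γ. The genes were Abcc9, Kcnj8, Rgs5, Pdgfrb, Cspg4, Notch3, Mcam, Acta2, Myh11 and Des, taken by symbol from the 55487 genes of the count table, and all 10 were among the 15114 genes that passed the filter on low counts. The set was chosen partly from the readout, since Abcc9 was already known to be among the genes that were lower in the IFN-γ group, so the differences of the 10 genes between the groups are given as a description, with no p-value, and counts of them past a threshold are printed only beside those of all genes. CT26.WT cells come from a mouse colon carcinoma, and both groups were male BALB/c mice, bought at an age of 4 weeks, that carried tumors of these cells under the skin. IFN-γ was injected into the tail vein every 48 h, in doses of 100 µL with a concentration of 100 ng/ml, and the control group was given PBS. Total RNA of 3 control tumors and 3 IFN-γ tumors was sequenced. The paper's figure legend gives fewer than 3 IFN-γ tumors for its own RNA-seq results and does not say which were used. A tumor piece holds cancer cells together with vessels, immune cells and adjoining tissue of the host, and how the pieces were cut is not given in the sources used here.

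Pericytes sit on capillaries in contact with the endothelium, which recruits them by releasing PDGF-B onto the receptor PDGFRβ on their surface. Smooth muscle cells cover larger vessels and contract through smooth muscle actin and myosin. In pericytes an ATP-sensitive potassium channel couples metabolism to membrane voltage. Its pore is Kir6.1, the product of Kcnj8, and its regulatory subunit is the sulfonylurea receptor SUR2, the product of Abcc9, a protein of the ABC transporter family that regulates the opening of the pore. Both genes are widely used to tell pericytes from other cells, whereas SUR2 is also made in heart and skeletal muscle.

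Abcc9 (ENSMUSG00000030249) and Kcnj8 (ENSMUSG00000030247) are neighbors on the minus strand of chromosome 6. In the GENCODE M21 annotation of GRCm38 (mm10), Abcc9 spans chr6:142587862-142702315 with 6 transcripts, and Kcnj8 spans chr6:142564837-142571614 with 2. Their bodies are separated by 16247 bases, with Kcnj8 downstream of Abcc9. The promoters of this pair are shown because the 2 genes had the largest differences of the set. The sequences are those of RefSeq for GRCm38.p6, from 250 bases before to 50 bases after the annotated start of transcription, on the minus strand and written in the direction of the gene. Abcc9 is given from chr6:142702225-142702524 and Kcnj8 from chr6:142571565-142571864, and the capitals mark the motif matches described next.
Abcc9: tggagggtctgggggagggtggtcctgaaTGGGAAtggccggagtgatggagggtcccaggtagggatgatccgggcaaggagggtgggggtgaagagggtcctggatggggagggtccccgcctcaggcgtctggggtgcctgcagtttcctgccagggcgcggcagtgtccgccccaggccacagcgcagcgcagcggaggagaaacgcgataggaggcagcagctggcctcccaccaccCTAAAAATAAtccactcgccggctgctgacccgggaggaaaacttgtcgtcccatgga
Kcnj8: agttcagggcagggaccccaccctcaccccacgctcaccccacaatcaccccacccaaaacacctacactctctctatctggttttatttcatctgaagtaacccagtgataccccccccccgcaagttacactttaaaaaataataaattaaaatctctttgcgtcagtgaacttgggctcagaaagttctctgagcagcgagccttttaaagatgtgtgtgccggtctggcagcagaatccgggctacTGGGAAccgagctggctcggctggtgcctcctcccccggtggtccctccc
Both windows hold 1 match to TGGGAA, the core letters of RBPJ, the DNA-binding partner of Notch receptors. It begins 221 bases before the start in Abcc9 and at base 1 of the transcript in Kcnj8. The match is common, present in 25.6% of all 32851 promoter windows of the same length. The Abcc9 window also holds 1 match to the MEF2 motif, the site of a family of muscle transcription factors, beginning 8 bases before the start, and 3.19% of all windows hold such a match. Neither window holds CACGTG (E-box, 7.15% of all windows), TTATGTAA (D-box, 0.938%) or the CArG motif of serum response factor (1.63%). Both strands were searched, no 2 of the matches overlapped, and the motifs were chosen with earlier results of these data known. Of the 10 genes, 8 had their promoter scanned, and the only other match to these motifs was 1 of TGGGAA in Acta2.

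The 6 libraries held from 15759300 to 17559680 counts on genes. At this depth a count of 0 allows up to 0.188 CPM (counts scaled to library size, here with TMM factors) in the shallowest library, which is the level of 3 counts and covers counting error only. One library stood apart from its group. The summed level of 16 IFN-γ response genes was 4304 and 4452 CPM in IFN-γ tumors 1 and 2 but 2025 CPM in IFN-γ tumor 3, inside the range of the controls (1546 to 2555 CPM), and the values of the 10 genes and of the main lists are also given without that tumor. Of the epithelial markers examined, Cdx2 had 0 counts in all 6 libraries, Epcam was between 0.0571 and 0.928 CPM, Cdh1 between 1.28 and 2.46 CPM, Krt18 between 6.41 and 10.4 CPM and Krt8 between 0.186 and 12.1 CPM, whereas Vim, a mesenchymal filament gene, stood between 4734 and 5903 CPM.

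Abcc9 was at 20.8, 25.8 and 21.9 CPM in control tumors 1, 2 and 3, whereas IFN-γ tumors 1, 2 and 3 had 8.53, 9.29 and 10.9 CPM. Every IFN-γ tumor lay below every control, and the gap between the groups was wider than the spread within either of them. Control tumors averaged 22.8 ± 2.62 CPM (SD, n = 3), against 9.59 ± 1.23 CPM for the IFN-γ tumors (SD, n = 3). On the log2 scale the difference was -1.25 (SE 0.14), which leaves 42.0% of the control level, and 46 of the 15114 genes tested had a more negative value. The underlying reads were 332, 457 and 384 in the controls, against 147, 152 and 177 in the IFN-γ tumors, so that counting error is small beside the difference.

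Kcnj8 showed nearly the same pattern at lower counts. It stood at 12.7, 11.8 and 8.74 CPM in the controls, against 3.83, 5.38 and 5.69 CPM in the IFN-γ tumors, again with no overlap. The log2 difference was -1.16 (SE 0.22), and 62 genes had a more negative value. The ratio of the 2 genes was thereby much the same in both groups. Per kb of exon, Abcc9 stood at 0.498, 0.665 and 0.764 times Kcnj8 in the controls, against 0.678, 0.526 and 0.585 times in the IFN-γ tumors, so the ranges overlapped.

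The other ATP-sensitive channel genes were all but absent. Abcc8, which encodes the SUR1 subunit of pancreatic beta cells, had 1 count in the 6 libraries together, in control tumor 3. Kcnj11, which encodes the pore subunit Kir6.2 of beta cells and muscle, had from 0 to 11 counts per library and never exceeded 0.672 CPM. Both were under the filter, and no fold change is given for them.

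The chromosomal neighbors of the pair did not share the pattern. Of 26 other genes annotated within 500 kb on either side, 9 had enough counts to be tested, and 0 passed the adjusted threshold in edgeR's quasi-likelihood test, DESeq2 or limma-voom, with 0 at an unadjusted p under 0.05 in edgeR. Their log2 differences ran from -0.11 for C2cd5 to 0.38 for Ldhb (SE 0.20), a lactate dehydrogenase subunit gene and the nearest tested gene downstream of Kcnj8. Cmas, the nearest tested gene on the other side, was at 30.6 CPM on average in the controls, against 31.5 CPM in the IFN-γ group. An antisense gene inside Abcc9, 5330439B14Rik, shares 158 bases of exon with it and had 0 counts in every tumor. Antisense genes also share exon bases with Notch3 (Gm17276, 488 bases, 0 counts), Des (Gm15179, 220 bases, 0 to 2 counts per tumor) and Mcam (Gm10687, 17 bases, 3 to 16 counts per tumor). Since a strand setting is not stated, reads of these pairs cannot be told apart. Counts per gene do not separate the splice forms of SUR2.

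Rgs5 encodes a regulator that shortens G protein signaling and is among the most abundant pericyte transcripts. It stood at 61.0, 79.2 and 77.0 CPM in the controls, against 43.3, 55.7 and 38.6 CPM in the IFN-γ tumors, and the groups did not overlap. The log2 difference was -0.66 (SE 0.15). Mcam, the adhesion molecule CD146 of mural and endothelial cells, had the tightest values of the set. It was at 87.7, 97.3 and 89.8 CPM in the controls, against 69.2, 60.2 and 62.8 CPM in the IFN-γ tumors, a log2 difference of -0.51 (SE 0.08), with the least spread of the 10 genes within each group. Cspg4, the proteoglycan NG2 of the pericyte surface, was scarce, with 5.94, 7.10 and 6.11 CPM in the controls, against 3.60, 5.25 and 2.78 CPM in the IFN-γ tumors. Its groups did not overlap either, and the log2 difference was -0.72 (SE 0.25).

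**Figure D1:**
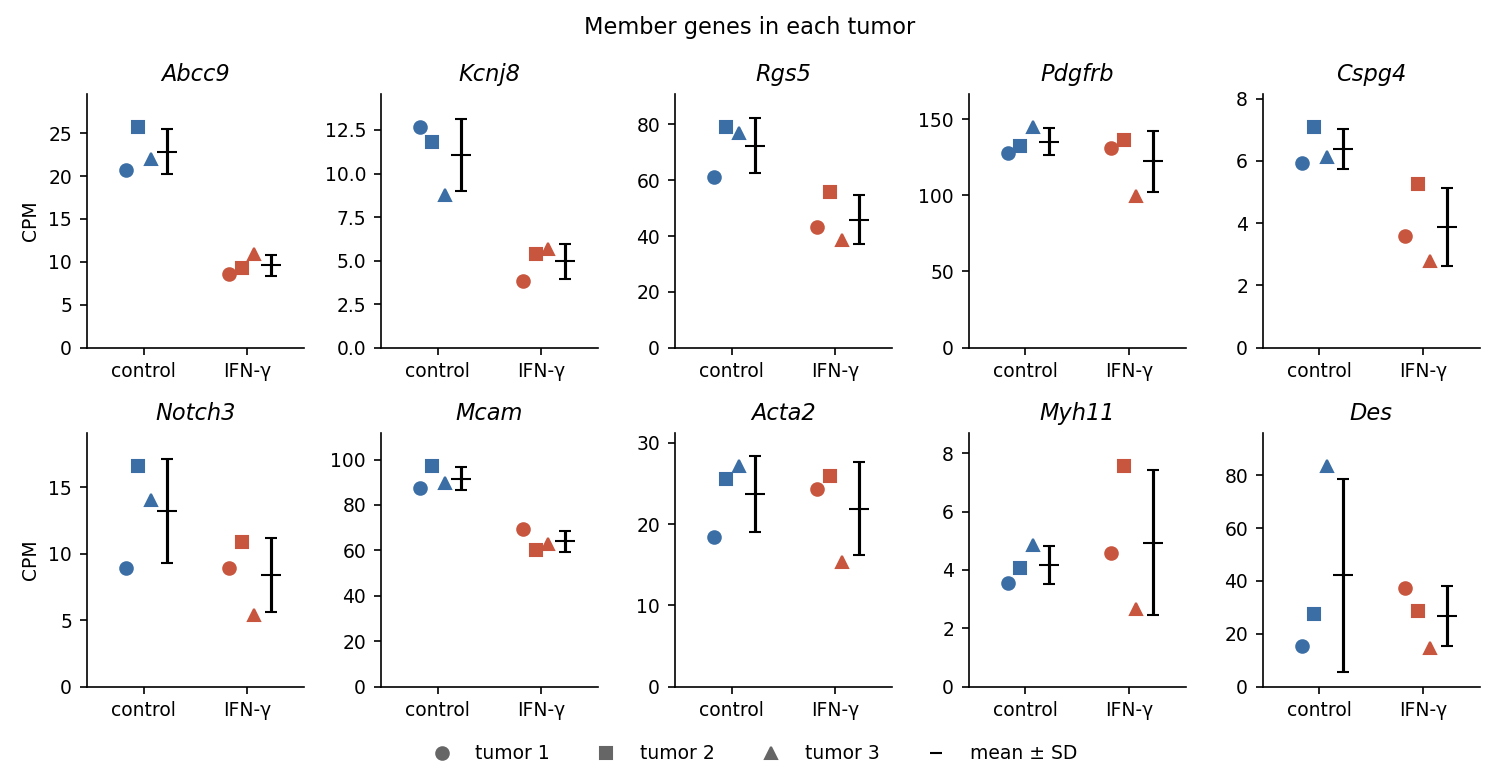
Level of each of the 10 genes in CPM (vertical axes, each starting at 0) in the 3 control tumors (blue) and 3 IFN-γ tumors (red), with the symbol giving the tumor number and black bars the mean ± SD (n = 3). Abcc9, Kcnj8, Rgs5, Cspg4 and Mcam have every IFN-γ tumor below every control, while the groups of Pdgfrb, Notch3, Acta2, Myh11 and Des overlap.

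Pdgfrb, the receptor through which PDGF-B recruits pericytes and which fibroblasts also carry, differed little. It was at 128, 132 and 145 CPM in the controls, against 131, 136 and 99.3 CPM in the IFN-γ tumors, so that only IFN-γ tumor 3 stood outside the control range. The log2 difference was -0.14 (SE 0.12) with all tumors and -0.024 without IFN-γ tumor 3. Notch3, the Notch receptor of mural cells, spread more, at 8.94, 16.6 and 14.1 CPM in the controls, against 8.94, 10.9 and 5.38 CPM in the IFN-γ tumors. Its groups overlapped, with control tumor 1 at the level of IFN-γ tumor 1, and the log2 difference of -0.65 had an SE of 0.30.

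Set against Pdgfrb in the same tumor, Abcc9, Kcnj8, Rgs5 and Cspg4 were still lower in every IFN-γ tumor than in any control. Abcc9 reached 16.2, 19.5 and 15.1% of the Pdgfrb CPM in the controls, against 6.52, 6.80 and 11.0% in the IFN-γ tumors. For Rgs5 the shares were 47.7, 59.8 and 53.1% against 33.1, 40.8 and 38.9%, and for Kcnj8 9.91, 8.90 and 6.03% against 2.93, 3.94 and 5.73%. Cspg4 also separated, at 4.64, 5.36 and 4.22% against 2.75, 3.85 and 2.80%. Notch3 did not separate, and Mcam did not, because IFN-γ tumor 3 at 63.2% lay above control tumor 3 at 61.9%. In bulk tumors fewer cells of a type and less RNA per cell cannot be told apart, and Pdgfrb is not particular to pericytes.

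The contractile genes Acta2 and Myh11 did not follow the potassium channel pair. Acta2, smooth muscle actin, was at 18.4, 25.5 and 27.2 CPM in the controls, against 24.4, 26.0 and 15.3 CPM in the IFN-γ tumors, so that IFN-γ tumors 1 and 2 sat inside the control range. The log2 difference was -0.12 (SE 0.22). Myh11, the smooth muscle myosin heavy chain and the strictest smooth muscle marker of the set, was at 3.56, 4.06 and 4.86 CPM in the controls. In the IFN-γ tumors it was at 4.59, 7.57 and 2.66 CPM, both above and below the controls, and the log2 difference of 0.25 was smaller than its SE of 0.36. As a share of Rgs5, Acta2 stood at 30.2, 32.2 and 35.3% in the controls, against 56.3, 46.6 and 39.7% in the IFN-γ tumors, with no overlap. Rgs5 itself was lower in every IFN-γ tumor than in any control. As a share of Pdgfrb the groups overlapped, with Acta2 at 14.4, 19.3 and 18.8% in the controls, against 18.6, 19.0 and 15.4% in the IFN-γ tumors.

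Des, the intermediate filament desmin of all muscle types, varied most. It was at 15.4, 27.3 and 83.7 CPM in the controls, against 37.3, 28.5 and 14.8 CPM in the IFN-γ tumors, and control tumor 3 alone set the control mean of 42.1 ± 36.4 CPM (SD, n = 3). The log2 difference of -0.65 (SE 0.57) turned to 0.32 without control tumor 3. Skeletal muscle genes were highest in that tumor too. The summed level of 19 of them, all tested, was 219, 360 and 1370 CPM in control tumors 1, 2 and 3 and 564, 740 and 241 CPM in the IFN-γ tumors, and Acta1, skeletal muscle actin, was at 54.1 CPM in control tumor 1 and at 347 CPM in control tumor 3. The part of skeletal muscle in the values of Des, Acta2 and Abcc9 was not tested.

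**Figure D2:**
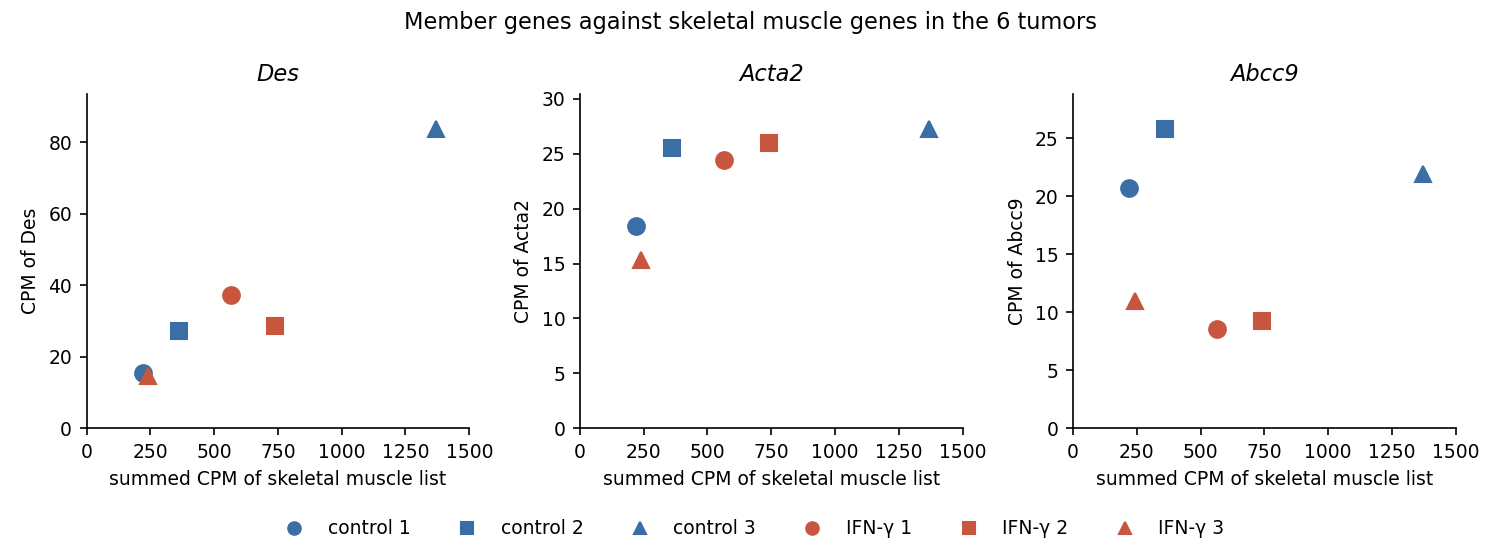
Level of Des, Acta2 and Abcc9 in CPM (vertical axes) against the summed CPM of 19 skeletal muscle genes (horizontal axis) in the 6 tumors, with controls in blue, IFN-γ tumors in red and the symbol giving the tumor number. Des is highest in control tumor 3, which has the most skeletal muscle RNA (1370 CPM), and no IFN-γ tumor lies above 740 CPM on the horizontal axis, so the groups cannot be compared beyond it.

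Compared per length of exon, the set spanned a wide range of levels in the control tumors. Mcam stood highest at 27.3 ± 1.51 CPM per kb (SD, n = 3), followed by Pdgfrb at 24.7 ± 1.61 and Rgs5 at 15.9 ± 2.18 CPM per kb. The highest Pdgfrb control (26.5 CPM per kb) was above the lowest Mcam control (26.2 CPM per kb), so these neighbors in the order did not differ beyond their spread. Acta2 was at 10.8 ± 2.12 CPM per kb, and Des at 11.2 ± 9.71 CPM per kb spread from 4.11 to 22.3, across the values of Rgs5, Acta2 and Kcnj8, so that it could not be ordered. Kcnj8 at 4.35 ± 0.812 CPM per kb was above Abcc9 at 2.73 ± 0.313 in each control tumor, and Notch3 followed at 1.63 ± 0.484. Myh11 and Cspg4 were lowest and overlapped, at 0.547 ± 0.0859 and 0.535 ± 0.0526 CPM per kb. Of the smooth muscle list, Myocd, the coactivator that drives the smooth muscle program, had 0 to 3 counts per library. Calponin (Cnn1), another defining marker of contractile smooth muscle, had 1 to 11 counts per library, and phospholamban (Pln) 0 to 4. These 3 were picked for their low counts. Of the 20 genes of that list 16 had enough counts to be tested. Smtn was at 77.5, Mylk at 61.9 and Tagln at 11.0 CPM on average over the 6 tumors.

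Across the set, 9 of the 10 genes had a log2 difference below 0, where 49.6% of all genes tested did, and the median was -0.65 against 0.0015 for all genes tested. In 5 of the 10 every IFN-γ tumor was below every control, which was so for 7.50% of the genes tested. Abcc9 was the 1 gene of the 10 past the adjusted threshold of 0.05 in edgeR, in a comparison where 5 genes, 0.0331% of those tested, were called lower and 12, or 0.0794%, higher. With DESeq2, and in edgeR without the filter on low counts, 4 of the 10 passed (Abcc9, Kcnj8, Rgs5 and Mcam), where 0.509% and 0.261% of all genes were called lower. Since the set was proposed with these results in view, nothing is read from these counts. Limma-voom called 1 of the 10 (Abcc9, with 0.0198% of all genes lower) and edgeR with a block for the tumor number called 0 (0.0132%). Leaving out any control tumor, IFN-γ tumor 1 or IFN-γ tumor 2 left 0 of the 10 past the threshold. In those fits only from 2 to 4 of all genes were called lower, and the log2 difference of Abcc9 stayed between -1.31 and -1.15. Leaving out IFN-γ tumor 3 left 3 of the 10 past it (Abcc9, Kcnj8 and Mcam, with 0.723% of all genes lower).

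IFN-γ tumor 3 divided the set. It was the lowest of all 6 tumors for 7 of the 10 genes (Rgs5, Pdgfrb, Cspg4, Notch3, Acta2, Myh11 and Des), but the highest of the 3 IFN-γ tumors for Abcc9 and Kcnj8. Without it the log2 differences of Abcc9 and Kcnj8 were larger in size, at -1.37 and -1.27. Those of Rgs5, Cspg4 and Notch3 were smaller in size, at -0.56, -0.54 and -0.43, and Mcam was at -0.51. Acta2 turned from -0.12 to 0.075, Myh11 went from 0.25 to 0.53 and Des from -0.65 to -0.37.

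**Figure D3:**
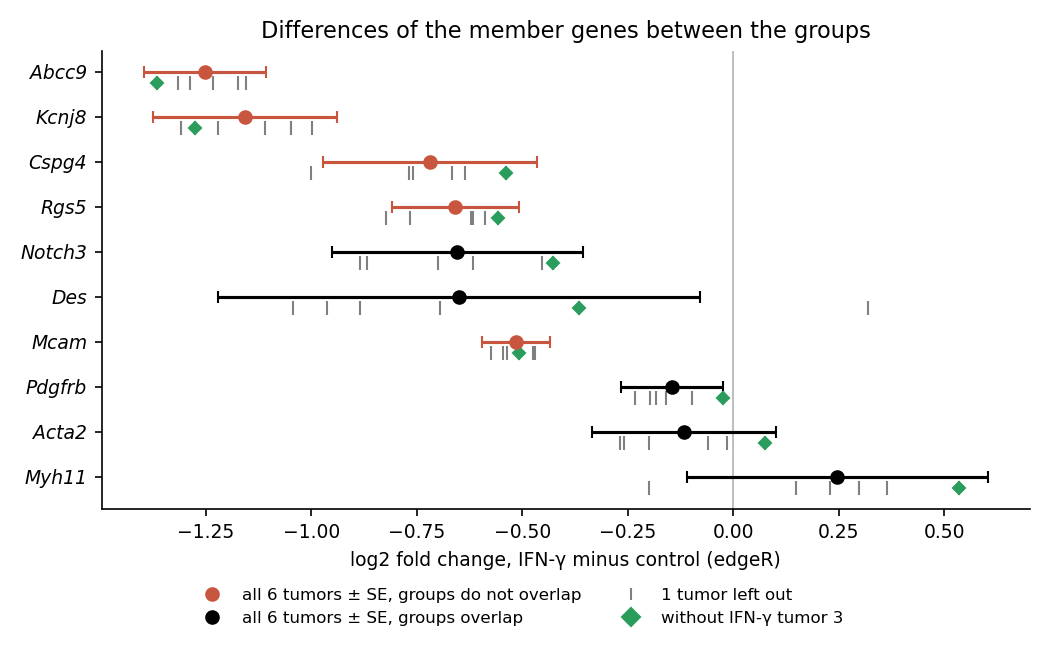
Log2 difference between the IFN-γ and control groups (horizontal axis) for the 10 genes, from edgeR with all 6 tumors (circles, bars ± SE, red where the groups do not overlap), with 1 tumor left out in turn (gray ticks) and without IFN-γ tumor 3 (green diamonds). Abcc9 and Kcnj8 lie furthest below 0 with all tumors. They stay below 0 in every fit, as do Rgs5, Cspg4, Mcam, Notch3 and Pdgfrb. The values of Acta2, Myh11 and Des cross 0 when single tumors are left out.

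Beyond the set, 20 other pericyte genes were examined, of which 18 were tested. In edgeR 0 passed the adjusted threshold, while 4 were lower and 2 higher at an unadjusted p under 0.05, where 4.44% and 5.74% of all genes tested were. DESeq2 called Foxs1 lower and Anpep higher, against 73 lower and 118 higher of 14355 genes, and limma-voom called 0. The median log2 difference was -0.28, with 13 of 18 below 0. Without IFN-γ tumor 3 it was -0.14, and 0 were called lower and 2 higher (Anpep and P2ry14), against 112 and 381 of 15487 genes. The 3 most abundant did not share the pattern of Rgs5: Anpep, an aminopeptidase also made by myeloid cells and fibroblasts, was at 0.68 (SE 0.19), Pde5a, the cGMP phosphodiesterase, at 0.05 (SE 0.09) and Cd248, endosialin, at -0.17 (SE 0.15). Every IFN-γ tumor was above every control in 1 of the 18, where this held for 7.62% of all genes. In 5 of the 18 every IFN-γ tumor was below every control, which held for 7.50% of all genes. These 5 are named after their values were seen. They were Heyl, a Notch target gene at -1.73 (SE 0.46), the forkhead factor gene Foxs1 at -1.37 (SE 0.32), Rgs4, a relative of Rgs5, at -1.09 (SE 0.28), Higd1b at -0.86 (SE 0.43), and Gucy1b1, a subunit of the nitric oxide receptor, at -0.73 (SE 0.25). All 5 were scarce, and Heyl had 25, 63 and 51 counts in the controls, against 15, 19 and 6 in the IFN-γ tumors.

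Of 20 other smooth muscle genes in the table, 16 were tested and 0 passed in edgeR, DESeq2 or limma-voom. At an unadjusted p under 0.05, 3 were lower and 1 higher in edgeR, where 4.44% and 5.74% of all genes tested were. Named after their values were seen, these were Tagln, Smtn and Cald1 (lower) and Actg2 (higher). Tagln was at -0.52 (SE 0.22), and its groups overlapped. Every IFN-γ tumor was below every control for 2 of the 16 and above for 1, where this held for 7.50% and 7.62% of all genes. The median log2 difference was -0.11. Without IFN-γ tumor 3 it was -0.043, again with 0 past the threshold. The 3 most abundant were Cald1 (caldesmon) at -0.18 (SE 0.08), Tpm1 (tropomyosin) at 0.0032 (SE 0.10) and Ppp1r12b, a myosin phosphatase subunit, at -0.10 (SE 0.13). These genes are made in many cell types, and their summed level lay between 1305 and 1425 CPM in the controls, against between 1256 and 1267 CPM in the IFN-γ tumors.

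Signals that recruit mural cells or act through Notch made up a list of 21 genes, of which 20 were tested and 0 passed in edgeR. At an unadjusted p under 0.05, 4 were lower and 1 higher, where 4.44% and 5.74% of all genes tested were. DESeq2 called Dll4 lower, where 0.509% of all genes were, and limma-voom called 0. Pdgfb, the ligand of PDGFRβ, was at 17.9, 18.9 and 20.3 CPM in the controls, against 18.1, 16.1 and 14.6 CPM in the IFN-γ tumors, and is named here for its role. The most abundant members, Notch2, Tgfbr2 and Tgfb1, had log2 differences of -0.15 (SE 0.12), 0.02 (SE 0.14) and -0.03 (SE 0.07). Every IFN-γ tumor was below every control for 3 of the 20 (Dll4, S1pr1 and Notch4) and above for 1 (Acvrl1), where this held for 7.50% and 7.62% of all genes, and these 4 were picked on their values. The median was -0.15, and without IFN-γ tumor 3 it was -0.081, with 1 (Dll4) called lower and 0 higher. Dll4, the Notch ligand of endothelial tip cells, stood at 17.6, 23.5 and 19.1 CPM in the controls, against 12.5, 11.2 and 12.4 CPM in the IFN-γ tumors.

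Endothelial markers were measured beside the mural genes, because both come from vessels. All 18 were tested and 0 passed in edgeR. At an unadjusted p under 0.05, 5 were lower and 0 higher, where 4.44% and 5.74% of all genes tested were. DESeq2 called Flt1 and Kdr lower, where 0.509% of all genes were, and limma-voom called 0. Their summed level was 493, 598 and 594 CPM in the controls, against 544, 493 and 415 CPM in the IFN-γ tumors, so the groups overlapped. In 5 of the 18 (Cdh5, Kdr, Flt1, Esam and Robo4, named after their values were seen) every IFN-γ tumor was below every control, where this held for 7.50% of all genes, and in 0 above. The median log2 difference was -0.14 with all tumors and -0.039 without IFN-γ tumor 3, where 1 (Flt1) was called lower and 0 higher. Pecam1 and Cdh5, junction proteins of endothelium, were at -0.20 (SE 0.13) and -0.39 (SE 0.12), and Ecscr at 0.12 (SE 0.11). The difference between this list and the 10 mural genes was not tested.

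**Figure D4:**
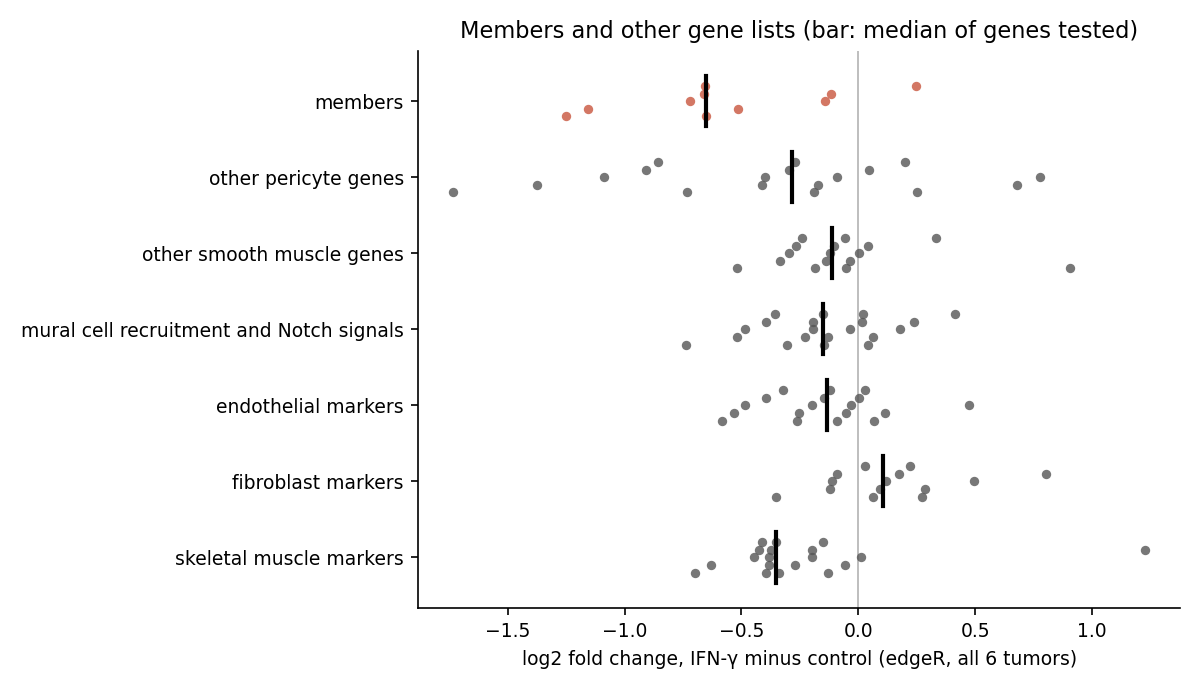
Log2 difference between the IFN-γ and control groups from edgeR with all 6 tumors (horizontal axis) for the 10 genes (red) and for the tested genes of 6 other lists (gray), with a black bar at each median. The median is -0.65 for the 10 genes, -0.28 for other pericyte genes and between -0.35 and 0.11 for the other 5 lists, where the -0.35 of skeletal muscle becomes 0.0099 without IFN-γ tumor 3.

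Over all genes, 4.44% of those tested were lower and 5.74% higher at an unadjusted p under 0.05 in edgeR. DESeq2 called 118 of 14355 genes higher, and edgeR without IFN-γ tumor 3 called 381 of 15487 higher. Beside these, lists of the other cells that the tumor pieces could hold gave the following. Of 14 fibroblast markers, all tested, 0 passed in edgeR or limma-voom, 2 were higher and 0 lower at an unadjusted p under 0.05, and DESeq2 called Clec3b higher. The median was 0.11 with all tumors and 0.31 without IFN-γ tumor 3, where 0 passed in edgeR, and the summed level was between 3521 and 5456 CPM in the controls, against between 3545 and 5503 CPM in the IFN-γ tumors. Of the 19 skeletal muscle genes 0 passed in edgeR, DESeq2 or limma-voom and 0 had an unadjusted p under 0.05, with a median of -0.35, which was -0.042 in limma-voom and 0.0099 without IFN-γ tumor 3. The 8 adipocyte genes were all above 0 with a median of 2.23. In edgeR and limma-voom 0 of them passed, 7 were higher at an unadjusted p under 0.05 in edgeR, and DESeq2 called 5 higher. Without IFN-γ tumor 3 edgeR called 4 higher, with a median of 2.20. Their summed level was 103 to 145 CPM in the controls, against 145 to 203 CPM in the IFN-γ tumors. Of the 8 Schwann cell markers 5 were tested and 0 passed in edgeR, DESeq2 or limma-voom, with 1 higher at an unadjusted p under 0.05. Sox10, their defining factor, had at most 0.183 CPM. Melanocyte markers (1 of 6 tested, 0 passed, 0 at an unadjusted p under 0.05) summed to between 39.6 and 49.5 CPM, of which Mitf alone was 39.1 to 48.5 CPM, while Tyr was at 0 and Tyrp1, Dct, Mlana and Pmel reached at most 0.580 CPM. Keratinocyte markers (2 of 8 tested, 0 passed, 1 higher at an unadjusted p under 0.05) summed to 72.4 CPM in IFN-γ tumor 3 and to at most 14.4 CPM elsewhere, with Krt14 at 33.2 CPM there. The 16 IFN-γ response genes had a median of 0.71, with 0 passing in edgeR and limma-voom, 11 higher at an unadjusted p under 0.05 and Socs1 called by DESeq2. Without IFN-γ tumor 3, 13 of the 16 were called higher in edgeR, and the median was 1.02. The part of these cell types in the values of the mural genes was not tested.

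Clock genes were a list made after the data were seen, so its count of calls cannot be ranked against those of the other lists. Of its 14 tested genes 9 passed in edgeR, where 17 of all 15114 genes tested (0.112%) did. The calls were 2 lower (Arntl and Nfil3) and 7 higher (Dbp, Tef, Nr1d1, Nr1d2, Per1, Per2 and Bhlhe41). Their log2 differences ran from -2.12 for Arntl to 4.28 for Dbp. For these genes IFN-γ tumor 3 lay on the same side of every control as the other IFN-γ tumors. The same was so for Abcc9, Kcnj8, Rgs5, Cspg4, Mcam and adipocyte genes such as Cidec. Among all genes tested, 7.50% had every IFN-γ tumor below every control and 7.62% had every one above, so the trait is not particular to these genes. The summed level of the 15 clock genes was 458 to 529 CPM in the controls, against 1003, 1053 and 1060 CPM in IFN-γ tumors 1, 2 and 3. That sum adds genes that moved in opposite directions, since of the 14 tested 10 were above 0 and 4 below. Whether the clock difference has a part in the Abcc9 and Kcnj8 values was not tested.

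The genes most like Abcc9 across the 6 tumors, by Pearson correlation of log2 CPM over the 14056 genes with at least 1 CPM on average, were Ltbp3 (0.994), Prpsap1 (0.993), Proser1 (0.993), 5430425K12Rik (0.992) and Tada2a (0.991). The 6 points share the 2 groups, so that these values mostly restate the group difference, and no p is given. Ltbp3, the closest, was at 179, 188 and 178 CPM in the controls, against 147, 152 and 159 CPM in the IFN-γ tumors, a far smaller log2 difference of -0.25. Among the 10 genes, Kcnj8 (0.942) and Mcam (0.942) came next to Abcc9, at places 84 and 87, then Rgs5 (0.844) and Cspg4 (0.763). Acta2 (0.147), Des (0.157) and Myh11 (-0.240) were not alike.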

How the data were processed

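The authors deposited whole-number read counts per gene, not normalized, for 6 bulk tumors (3 control, 3 IFN-γ), and all 6 columns were used. The submitters' processing notes name HISAT2 and mm10. The counting program, its strand setting and the annotation release are not given in the sources used here, so genes that overlap or have close copies are uncertain. Gene positions and exon lengths came from GENCODE M21. CPM used TMM factors. Groups were compared with edgeR 4.0.16 in R 4.3.3 (default filter on low counts, quasi-likelihood test, Benjamini-Hochberg adjustment, threshold 0.05), which was checked on simulated data. Each SE is the log2 difference divided by the root of its F statistic. Alternatives were limma 3.58.1 (voom), DESeq2 1.42.0, other scalings and filters, a block for the tumor number and leaving out each tumor. Likeness used log2 CPM with a prior count of 2. The 10 genes, the other lists and the motifs were chosen with earlier results of these data known. Of the other lists, the rule named every gene past the threshold or, with fewer than 3, the 3 most abundant tested genes, which are given here for the vessel lists and the clock. All further names were picked on their values or roles. The labels do not say that the tumors of a group are separate mice, so p-values measure only the spread between these samples. Correlations of log2 CPM between libraries ran from 0.976 to 0.990, and no pair appeared to be a duplicate. Protein sequences and the Myh11 promoter are not analysed here. The result for 1 further motif is not reported here.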

Additional observations from a re-analysis of the deposited data

How the results depend on the processing

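The log2 differences of the 10 genes were recomputed under 13 alternatives. Of these 130 values 127 kept their direction and 3 reversed. The reversals were Des at 0.32 without control tumor 3, Myh11 at -0.20 without IFN-γ tumor 2 and Acta2 at 0.075 without IFN-γ tumor 3. With 1 tumor left out at a time, Des ran from -1.04 to 0.32, Myh11 from -0.20 to 0.53 and Acta2 from -0.27 to 0.075. Counts of calls moved far more. The 12 genes called higher became 118 with DESeq2, 150 without the filter on low counts, 7 with library size only and from 4 to 381 with 1 tumor left out. The 5 called lower became 73 with DESeq2, 70 without the filter, 3 with limma-voom and from 2 to 112 with 1 tumor left out. Of the 10 genes, 1 passed in edgeR, 4 with DESeq2, 4 without the filter and from 0 to 3 with 1 tumor left out. Of the other lists 9 genes passed, 25 with DESeq2, 30 without the filter and from 6 to 37 with 1 tumor left out. Among the fits that left out 1 tumor, the highest count came each time without IFN-γ tumor 3. The cause of these shifts was not tested. With the replicate number as a block, 5 genes were called higher, 2 lower and 0 of the 10. Same-numbered tumors deviated from their group means with correlations of -0.21, -0.014 and -0.21, and were therefore treated as unpaired. Cspg4, Myh11, Heyl and Foxs1 have few reads, which limits their precision.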
